A study of Mus musculus with 18 samples.

Results

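Expression of 9 genes of the oxidative stress and metal responses was followed in mouse NIH3T3 fibroblasts: Hmox1, Nqo1, Gclc, Gclm, Txnrd1, Srxn1, Slc7a11, Mt1 and Mt2. They were taken by symbol from the gene counts, where each was found once among 24062 listed genes, and all 9 were among the 12140 genes with enough reads to test. NIH3T3 is an established line of mouse embryonic fibroblasts. The series set the parental line against NIH3T3-mCherry-mTRIM21, a line made from it that carries mouse TRIM21 joined to the red fluorescent protein mCherry. TRIM21 is a cytosolic receptor for antibody constant domains and a ubiquitin ligase. Both lines were electroporated (1400 V, 20 ms, 2 pulses) with phosphate-buffered saline (PBS), with bovine serum albumin (BSA) or with an antibody (IgG, catalogue label ab18447), with 7.5 µg for the protein treatments, and polyA RNA was sequenced 16 h afterwards. All 6 groups were therefore electroporated, and no sample was left without a pulse. Each group had 3 samples, whose titles hold the number 10, 11 or 14. What drives the transgene, whether the derived line is 1 clone, and whether samples came from separate cultures are not given in the sources used here, so p-values measure the spread between these samples, which may be technical.

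NRF2, encoded by Nfe2l2, is the main transcription factor of the antioxidant response. KEAP1 binds it and directs it to ubiquitination and the proteasome, and oxidants or electrophiles that modify KEAP1 let NRF2 build up and act, with a small MAF partner, on antioxidant response elements. Its targets make glutathione, reduce thiols, detoxify quinones and break down heme. Metallothioneins are small cysteine-rich proteins that bind zinc, copper and cadmium, and the zinc-sensing factor MTF1 turns their genes on through metal response elements. In fibroblasts these genes are expressed without added stress and are commonly used as reporters of oxidative or metal stress.

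The libraries held 19509017 to 29766433 reads assigned to genes. Levels are given in CPM, counts scaled to 1e+06 reads of the tested genes after TMM scaling (an adjustment for library composition, with factors between 0.977 and 1.03). Trim21 had 142 to 223 counts in the 9 parental samples and 19900 to 32225 in the 9 samples of the TRIM21 line, as the labels say. All 8 fibroblast markers were expressed, Myod1, Myog and Ckm of muscle, Krt5 of epithelium and Cd3e of T cells had 0 counts in every sample, and the summed epithelial markers were at most 0.583 CPM. Cd68, which fibroblasts can also express, was the one blood cell marker above trace level, at 4.56 to 8.65 CPM. The TRIM21 PBS sample numbered 11 stood apart. Its root mean square deviation from its group over all tested genes was 0.326 on the log2 scale, against 0.146 to 0.263 in the other samples, and its 8 fibroblast markers summed to 17370 CPM, against 25475 to 35844 CPM elsewhere. The main fold changes that rest on this sample are given with and without it. Spreads within groups, the Mt2 to Mt1 ratio and the most correlated genes are given only with it. In bulk RNA, a change in how many cells express a gene and in its level per cell cannot be told apart.

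Because Mt1 and Mt2 moved together from sample to sample, their promoter windows are shown first. Sequences are from RefSeq on GRCm38.p6, with 250 bases before to 50 bases after the annotated start, and entries were found for 7 of the 9 genes (not for Hmox1 or Gclc). The Mt1 window is chr8:94178839-94179138, plus strand, and the Mt2 window is chr8:94172368-94172667, plus strand. Capitals mark the metal response element cores TGCACNC and TGCGCNC, searched on both strands, where N is any base.
Mt1: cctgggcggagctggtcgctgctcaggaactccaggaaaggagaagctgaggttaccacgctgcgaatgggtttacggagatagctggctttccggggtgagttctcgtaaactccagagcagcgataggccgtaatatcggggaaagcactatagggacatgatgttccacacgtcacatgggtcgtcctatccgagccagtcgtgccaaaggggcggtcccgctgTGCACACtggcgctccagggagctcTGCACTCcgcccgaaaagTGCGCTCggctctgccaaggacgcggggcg
Mt2: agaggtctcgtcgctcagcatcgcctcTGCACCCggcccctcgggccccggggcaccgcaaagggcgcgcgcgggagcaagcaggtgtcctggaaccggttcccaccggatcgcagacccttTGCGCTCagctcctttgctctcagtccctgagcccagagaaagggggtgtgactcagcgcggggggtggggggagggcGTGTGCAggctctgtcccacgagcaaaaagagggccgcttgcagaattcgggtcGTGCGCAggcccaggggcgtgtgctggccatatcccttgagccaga
Mt1 held 3 of these cores and Mt2 held 4. The windows follow the annotated start, and cores outside them were not counted. Of 32817 mouse promoter windows of the same length, 25.7% held at least 1, 1.97% at least 3 and 0.518% at least 4. In the GENCODE annotation of GRCm38, Mt2 (94172664 to 94173568) and Mt1 (94179082 to 94180327) lie on the plus strand of chromosome 8, with 5513 bases between them.

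The windows of Srxn1 and Gclm are shown because these genes deviated in the direction opposite to the metallothioneins within groups. Srxn1 is chr2:152105274-152105573, plus strand, and Gclm is chr3:122245307-122245606, plus strand. Capitals mark the antioxidant response element cores TGACNNNGC and TGAGNNNGC on either strand.
Srxn1: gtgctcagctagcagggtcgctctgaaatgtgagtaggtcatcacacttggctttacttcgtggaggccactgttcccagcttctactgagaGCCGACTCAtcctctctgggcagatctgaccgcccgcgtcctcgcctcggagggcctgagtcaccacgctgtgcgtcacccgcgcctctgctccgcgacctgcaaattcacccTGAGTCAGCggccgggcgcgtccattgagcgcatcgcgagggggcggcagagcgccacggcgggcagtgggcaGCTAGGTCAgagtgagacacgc
Gclm: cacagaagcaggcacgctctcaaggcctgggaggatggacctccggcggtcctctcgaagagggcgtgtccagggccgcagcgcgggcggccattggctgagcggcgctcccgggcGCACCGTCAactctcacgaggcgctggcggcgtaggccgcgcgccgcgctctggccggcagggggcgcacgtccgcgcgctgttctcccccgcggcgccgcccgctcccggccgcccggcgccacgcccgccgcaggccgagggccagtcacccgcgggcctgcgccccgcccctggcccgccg
Srxn1 held 3 of these cores and Gclm 1. Slc7a11 and the second of the 3 annotated Txnrd1 promoters held 1 each, the other Txnrd1 promoters and Nqo1 held 0, and 27.8% of all windows held at least 1. The Srxn1 core at 45 bases before the start overlapped TGACTCA, the site of AP-1. Mt2 also held 1 antioxidant core, which overlapped the same AP-1 letters, and Gclm held 3 metal response element cores. A match describes letters in this window and does not show that a factor binds there.

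Levels were compared between genes after division by the length of the gene's exons. These lengths join the exons of all annotated transcripts, so the order below depends on the annotation. The length of Mt1 was 1246 bases, its whole annotated span, against 588 for Mt2, while their mean CPM were 205 and 231 (n = 18). For Txnrd1 and Slc7a11 the lengths were 7086 and 13922 bases, against longest transcripts of 3622 and 9223. Mt2 was highest at 392.4 ± 127 CPM per kilobase (SD, n = 18), and Mt1 followed at 165 ± 52.2. Srxn1 was at 71.7 ± 4.80 CPM per kilobase. Hmox1 (33.1 ± 6.10), Txnrd1 (32.1 ± 5.08) and Nqo1 (25.2 ± 9.22 CPM per kilobase) came next, with overlapping ranges. The subunit genes of glutamate-cysteine ligase were lower, Gclc at 12.1 ± 1.72 and Gclm at 9.13 ± 1.00 CPM per kilobase, and their ranges also overlapped. Slc7a11 was lowest at 0.939 ± 0.292 CPM per kilobase. Its highest sample (1.51) was below the lowest sample of every other gene of the 9, while the ranges of Mt2 and Mt1, and of Mt1 and Srxn1, overlapped.

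**Figure D1:**
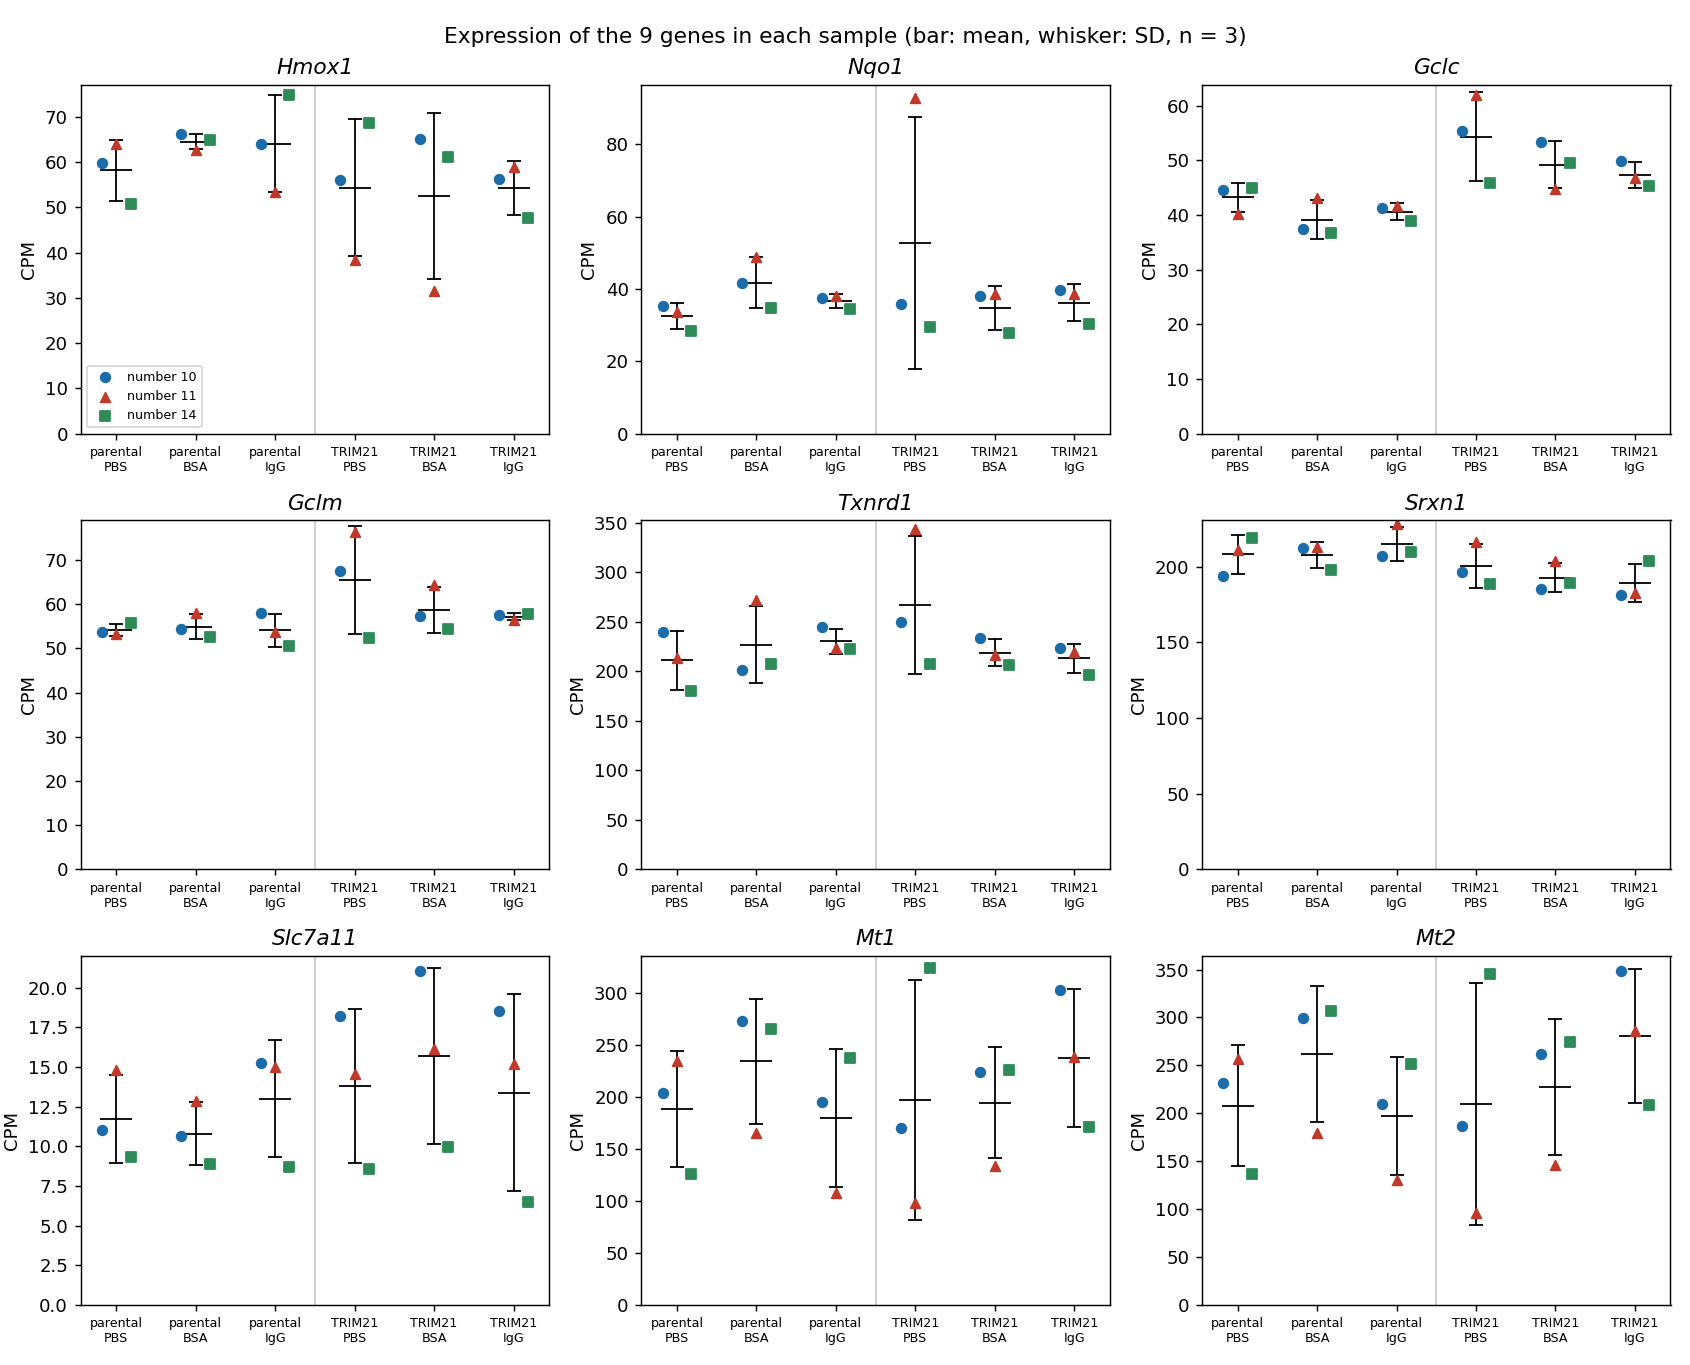
Each panel plots the CPM of 1 gene (vertical axis, from 0) in the 6 groups of line and treatment, with 1 point per sample shaped by its number, a bar at the mean and whiskers of 1 SD (n = 3). The Gclc points of the TRIM21 line lie above the parental points within each treatment, and the TRIM21 PBS sample numbered 11 stands alone in Nqo1 (92.7 CPM) and Txnrd1 (343.9 CPM).

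Between the lines, Gclc was the one gene of the 9 that passed the threshold in the main test. Gclc (chromosome 9, 77754535 to 77794485, plus strand, GRCm38, protein coding as are the other 8) encodes the catalytic subunit of glutamate-cysteine ligase, the rate-limiting enzyme of glutathione synthesis. In the TRIM21 line Gclc was at 55.3, 61.9 and 45.8 CPM after PBS, 53.3, 44.7 and 49.4 after BSA, and 49.8, 46.7 and 45.3 after IgG (samples numbered 10, 11 and 14). In the parental line it was at 44.5, 40.2 and 45.0 CPM after PBS, 37.4, 43.2 and 36.7 after BSA, and 41.2, 41.7 and 38.9 after IgG. The TRIM21 samples were the higher in 9 of 9 pairs of the same treatment and number. Over all tested genes, deviations of such pairs correlated at -0.029 to 0.445, so counts of pairs here and below only describe the samples. The ranges of the lines, 44.7 to 61.9 and 36.7 to 45.0 CPM, overlapped at their ends. Means were 50.3 ± 5.69 and 41.0 ± 2.96 CPM (SD, n = 9), a log2 fold change of 0.29 (SE 0.063, 1.23-fold) averaged over treatments, with an adjusted p of 0.00747 (edgeR quasi-likelihood test, Benjamini-Hochberg over 12140 genes). In this comparison 6.18% of all tested genes were called, 1.39% as higher and 4.79% as lower, so 1 call among 9 genes is near the share over all genes. With all 9 samples a line, 0 of the 9 genes had ranges that did not overlap, against 1.91% of all genes. The fusion and other differences between a derived line and its parent cannot be told apart. With the TRIM21 PBS sample numbered 11 left out, the Gclc log2 fold change was 0.25 (edgeR adjusted p = 0.0128).

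The Gclc difference was also computed within each number and each treatment. It was 0.36, 0.28 and 0.22 on the log2 scale within the numbers 10, 11 and 14 (3 samples of each line), and the lines' ranges did not overlap within any of the 3 numbers, as was the case for 20.5%, 13.2% and 18.8% of all tested genes. Within treatments it was 0.33 after PBS, 0.33 after BSA and 0.22 after IgG, with edgeR adjusted p of 0.136, 0.266 and 0.653 over all genes. After PBS it was 0.21 without the TRIM21 PBS sample numbered 11 (SE 0.11, edgeR adjusted p = 0.736). The ranges did not overlap within any treatment, but 15.4%, 16.8% and 19.8% of all tested genes likewise had ranges that did not overlap after PBS, BSA and IgG. After PBS, BSA and IgG, edgeR called 0 of the 9 genes, against 1.71%, 0.848% and 0.774% of all genes. At an unadjusted p under 0.05 the counts were 4, 1 and 1 of the 9 genes, against 19.8%, 10.3% and 7.79% of all genes. The 4 genes after PBS were Nqo1, Gclc, Gclm and Txnrd1. Without the TRIM21 PBS sample numbered 11 the counts were 0, 1 and 2, against 7.30%, 12.6% and 9.09% of all genes. Averaged over treatments it was 3 of 9 (Gclc, Gclm and Srxn1), against 21.4%, and 2 (Gclc and Srxn1) without that sample, against 17.5%.

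Gclm (chromosome 3, 122245557 to 122270732, plus strand), the modifier subunit that raises the efficiency of the same enzyme, had a log2 difference of 0.15 between the lines (SE 0.064, edgeR adjusted p = 0.192). It was at 60.5 ± 7.63 CPM in the TRIM21 line and 54.4 ± 2.45 in the parental line (SD, n = 9), higher in 7 of 9 pairs. The TRIM21 PBS samples spread widest, at 67.5, 76.5 and 52.3 CPM, and the parental samples lay between 50.6 and 58.1 CPM. Gclm passed the threshold when the TRIM21 PBS sample numbered 14, the lowest of that group, was left out (log2 0.19, edgeR adjusted p = 0.0270). Without the TRIM21 PBS sample numbered 11, the highest of all 18, the Gclm difference was 0.099 (edgeR adjusted p = 0.372). It also passed with a correction for transcript GC content and replicate number together (log2 0.15, edgeR adjusted p = 0.0341).

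The difference between the lines was not resolved for the other 7 genes. Srxn1 (chromosome 2, 152105516 to 152111376, plus strand), sulfiredoxin, which restores overoxidized peroxiredoxins, was at 194 ± 11.9 CPM in the TRIM21 line and 210.3 ± 10.2 in the parental line (SD, n = 9), with a log2 difference of -0.11 (SE 0.050, edgeR adjusted p = 0.191). It was the lower in the TRIM21 line in 7 of 9 pairs. After IgG the lines did not overlap, at 181 to 204 against 207 to 228 CPM, as was the case for 19.8% of all tested genes. Hmox1 (chromosome 8, 75093621 to 75100589, plus strand), heme oxygenase 1, which breaks down heme, differed by -0.21 (SE 0.13, edgeR adjusted p = 0.353). Its means were 53.7 ± 12.3 and 62.3 ± 7.12 CPM (SD, n = 9), with ranges of 31.6 to 68.6 and 50.7 to 74.9 that overlapped. Without the TRIM21 BSA sample numbered 11, the lowest of all 18, the Hmox1 difference was -0.13 (edgeR adjusted p = 0.502). Slc7a11 (chromosome 3, 49892526 to 50443614, minus strand), the cystine importer of system xc-, differed by 0.27 (SE 0.20, edgeR adjusted p = 0.464), and by 0.16 without the TRIM21 IgG sample numbered 10 (edgeR adjusted p = 0.712) and 0.17 without the TRIM21 BSA sample numbered 10 (edgeR adjusted p = 0.689). Txnrd1 (chromosome 10, 82833951 to 82897712, plus strand), cytosolic thioredoxin reductase, differed by 0.058 (SE 0.090, edgeR adjusted p = 0.747), and Eid3 overlaps it on the same strand. The metallothioneins differed by 0.066 (Mt1, SE 0.21, edgeR adjusted p = 0.888) and 0.10 (Mt2, SE 0.22, edgeR adjusted p = 0.815), with standard errors over 3 times that of Gclc. For Mt1, Mt2, Slc7a11, Nqo1, Hmox1 and Txnrd1 a difference of the size seen for Gclc would not have passed at their standard errors.

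**Figure D2:**
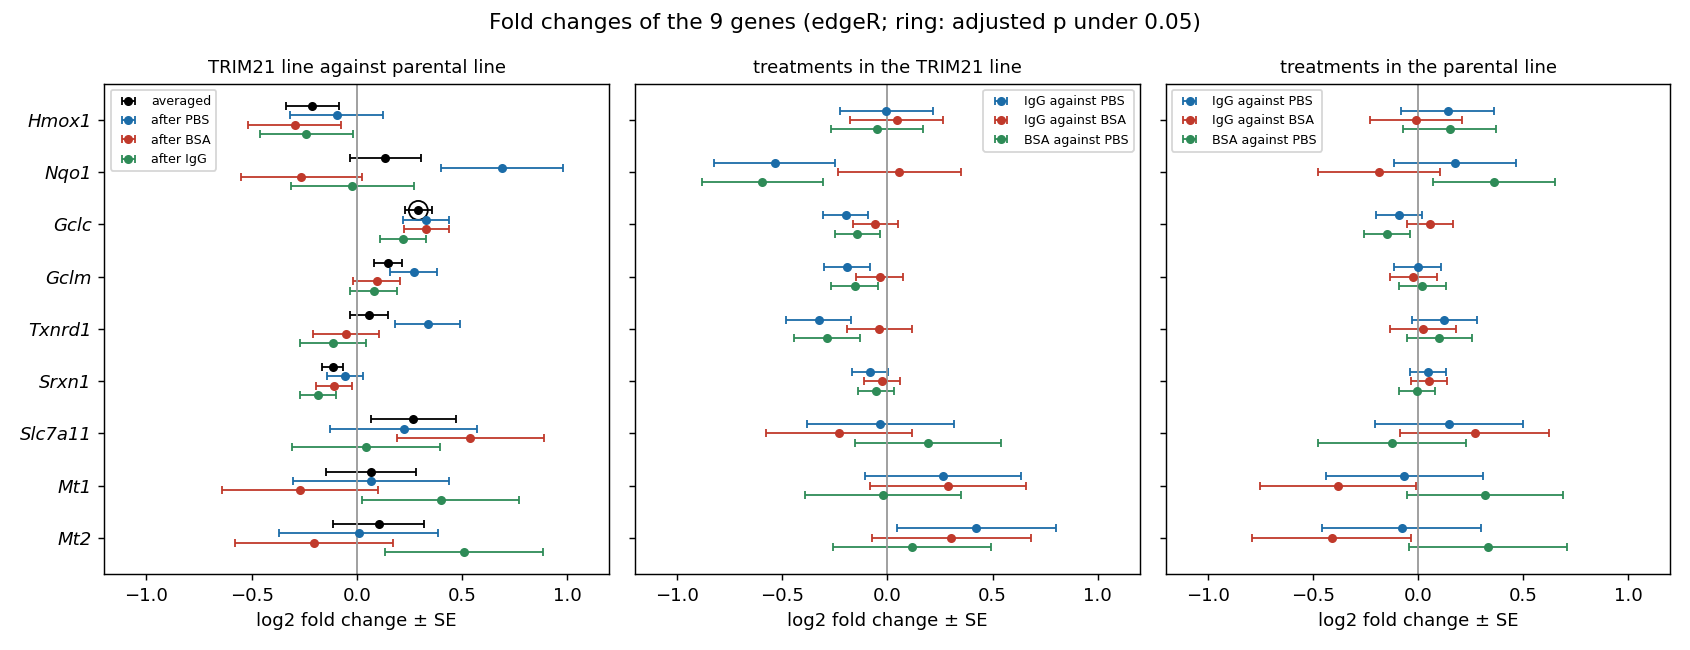
Points are edgeR log2 fold changes of the 9 genes and bars are 1 SE, for the line difference (left), the treatments in the TRIM21 line (middle) and the treatments in the parental line (right). A ring marks an adjusted p under 0.05, which only Gclc in the averaged line difference (0.29) carries, and the bars of Mt1, Mt2 and Slc7a11 are the widest in the averaged line difference.

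The Nqo1 values turned on 1 sample. Nqo1 (chromosome 8, 107388225 to 107403206, minus strand) encodes the quinone reductase commonly read as an NRF2 reporter. In the TRIM21 line (numbers 10, 11 and 14 in order) it was at 35.9, 92.7 and 29.5 CPM after PBS, 38.1, 38.6 and 27.8 after BSA, and 39.8, 38.5 and 30.4 after IgG. In the parental line it was at 35.3, 33.8 and 28.5 CPM after PBS, 41.6, 48.9 and 34.9 after BSA, and 37.6, 38.0 and 34.6 after IgG. Apart from the 92.7 CPM of the TRIM21 PBS sample numbered 11, every sample lay between 27.8 and 48.9 CPM. The averaged line difference was 0.14 with this sample (SE 0.17, edgeR adjusted p = 0.675) and -0.10 without it (SE 0.087, edgeR adjusted p = 0.608). After PBS alone the difference was 0.69 with it (SE 0.29, edgeR adjusted p = 0.207) and -0.012 without it (SE 0.16, edgeR adjusted p = 0.994).

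That sample was the highest of all 18 for Nqo1, Gclc, Gclm and Txnrd1, and the lowest of all 18 for Mt1 and Mt2. It also deviated most over all tested genes, and the share of them that was highest or lowest there was not computed. Txnrd1 was at 249.1, 343.9 and 207.6 CPM in the 3 TRIM21 PBS samples, and between 180.3 and 271.5 CPM in all other samples. Its line difference after PBS was 0.34 with the sample (SE 0.16, edgeR adjusted p = 0.238) and 0.097 without it (SE 0.13, edgeR adjusted p = 0.945). Hmox1 was second lowest there, at 38.5 CPM, after the TRIM21 BSA sample numbered 11 at 31.6 CPM. The fibroblast marker sum was also lowest in this sample, as given above, and its part in these levels was not tested.

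The treatments ask whether an antibody, with PBS and BSA as its controls, changes these genes after electroporation. No gene of the 9 passed the test between IgG, BSA and PBS in either line. edgeR called 0 of 9 genes in each of the 6 comparisons and 0% of the 12140 genes tested, and limma-voom and the DESeq2 Wald test also called 0 genes. At an unadjusted p under 0.05 the count was 0 of the 9 genes in each comparison, and without the TRIM21 PBS sample numbered 11 it was 1, Nqo1, for BSA against PBS in the parental line (3.44% of all genes) and 0 in the others. Over all genes that share was 5.61% for IgG against PBS, 0.371% for IgG against BSA and 3.68% for BSA against PBS in the TRIM21 line, and 2.68%, 5.87% and 2.49% in the parental line. The log2 differences of the 9 genes ran from -0.59 to 0.42 in the TRIM21 line and from -0.41 to 0.36 in the parental line. With all 3 samples a group, the ranges of every gene of the 9 overlapped in all 6 comparisons. Ranges did not overlap for 8.95%, 3.81% and 5.49% of all genes in the TRIM21 line and for 7.74%, 16.9% and 4.91% in the parental line, in the same order. Comparisons within a line share samples, so their values are not independent.

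In the TRIM21 line IgG against PBS gave -0.54 for Nqo1 (SE 0.29), -0.33 for Txnrd1 (SE 0.16), -0.20 for Gclc (SE 0.11) and -0.19 for Gclm (SE 0.11), each with an edgeR adjusted p of 0.724. Leaving out the TRIM21 PBS sample numbered 11, these values were 0.17, -0.081, -0.074 and -0.045, with edgeR adjusted p of 1. Mt1 and Mt2 gave 0.27 and 0.42 (SE 0.37 and 0.38, edgeR adjusted p = 0.825 and 0.743), and -0.043 and 0.091 without that sample. BSA against PBS in the same line gave -0.59 for Nqo1 (SE 0.29, edgeR adjusted p = 0.841) and 0.11 without the sample. Against BSA, which is also a protein, IgG gave -0.23 for Slc7a11, 0.29 for Mt1 and 0.30 for Mt2, and between -0.057 and 0.057 for the other 6 genes.

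In the parental line IgG against PBS gave 0.17 for Nqo1 (SE 0.29), 0.15 for Slc7a11 (SE 0.35), 0.14 for Hmox1 (SE 0.22) and 0.12 for Txnrd1 (SE 0.16), each with an edgeR adjusted p of 1. The metallothioneins were lower after IgG than after BSA in 3 of 3 same-number pairs, with -0.38 for Mt1 (SE 0.37, edgeR adjusted p = 0.793) and -0.41 for Mt2 (SE 0.38, edgeR adjusted p = 0.785). Nqo1 was higher after BSA than after PBS in 3 of 3 pairs (0.36, SE 0.29, edgeR adjusted p = 0.982). None of these passed.

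Whether a treatment effect differed between the lines was tested directly. edgeR called 0 of 27 such tests of the 9 genes and 0% of all genes, and limma-voom and the DESeq2 Wald test likewise called 0. At an unadjusted p under 0.05 the shares of all genes were 1.82% for IgG against PBS, 3.97% for IgG against BSA and 6.51% for BSA against PBS. The one gene of the 9 among them was Nqo1, in BSA against PBS, at -0.95 (SE 0.41, unadjusted p = 0.0320, edgeR adjusted p = 0.651) and -0.26 without the TRIM21 PBS sample numbered 11 (SE 0.22, edgeR adjusted p = 0.931). The highest values were those of Mt2 and Mt1 in IgG against BSA, at 0.72 (SE 0.53, edgeR adjusted p = 0.843) and 0.67 (SE 0.52, edgeR adjusted p = 0.844). All 6 groups enter these tests, and those that use PBS share the TRIM21 PBS samples.

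The 9 genes varied unequally between samples of one group. The SD within groups on the log2 CPM scale was 0.57 for Mt2, 0.55 for Mt1 and 0.52 for Slc7a11, larger than that of 97.5%, 97.2% and 96.5% of tested genes, and 0.41 for Nqo1 (91.4%). Hmox1 was at 0.32 and Txnrd1 at 0.21, against a median of 0.18 over all tested genes. Gclm (0.14), Gclc (0.13) and Srxn1 (0.084) lay below that median, and 4.46% of genes had a smaller SD than Srxn1.

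Mt1 shows this spread in each group. In the TRIM21 line (numbers 10, 11 and 14 in order) it was at 169.9, 98.0 and 323 CPM after PBS, 224, 133 and 226 after BSA, and 303, 238 and 170.5 after IgG. In the parental line it was at 204, 234 and 126 CPM after PBS, 272, 165 and 265 after BSA, and 195, 107 and 237 after IgG. The highest and the lowest of all 18 values were both in the TRIM21 PBS group, a 3.30-fold range, and no number was always high or low. Mt2 followed the same order closely, from 95.4 CPM in the TRIM21 PBS sample numbered 11 to 348 CPM in the TRIM21 IgG sample numbered 10.

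Mt2 counts were 0.973 to 1.22 times the Mt1 counts in the 18 samples, with a mean of 1.12 ± 0.066 (SD, n = 18). The ratio stayed within this band while each gene varied over 3-fold. The Mt2 exons share 45.5% of their 50-base words with Gm45774, an annotated antisense transcript on the opposite strand that is not among the counted genes. The libraries are strand-specific per the labels, and whether the counting used strand is not given in the sources used here.

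**Figure D3:**
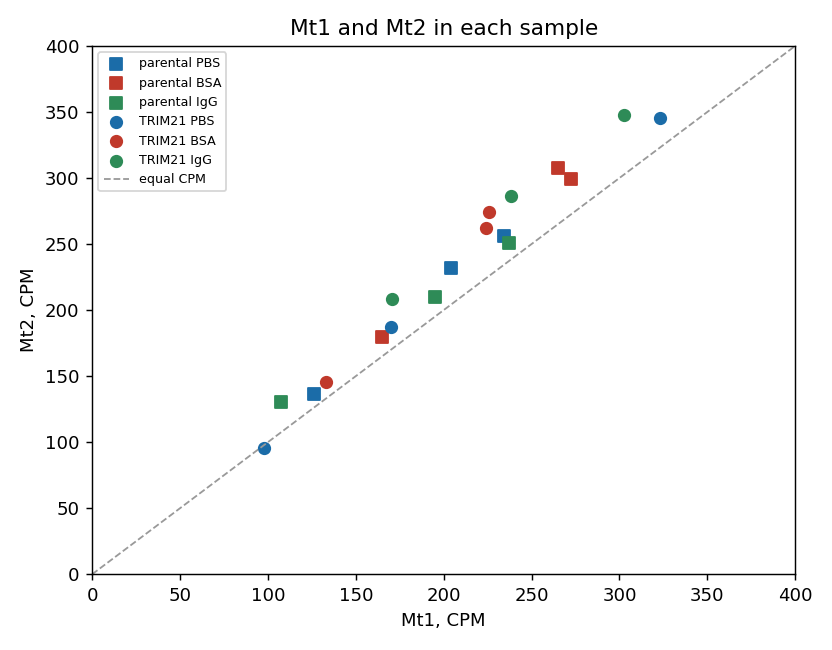
Mt1 (horizontal axis) is plotted against Mt2 (vertical axis), both in CPM, with 1 point per sample, colours for treatments, shapes for lines and a dashed line of equal CPM. The points run along 1 line from 98.0 and 95.4 CPM in the TRIM21 PBS sample numbered 11 upward, with a Mt2 to Mt1 ratio of 0.973 to 1.22.

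Deviations of the 18 samples from their group means split most of the genes into opposing sets. Mt1 and Mt2 had a Pearson r of 0.99 (Spearman rho 0.98), and Hmox1 went with them, at r = 0.83 with Mt1 and 0.86 with Mt2 (rho 0.82 and 0.83). Hmox1 kept this relation in each line, at r = 0.83 and 0.83 with Mt1 in the TRIM21 and the parental line (n = 9 each), and without the TRIM21 PBS sample numbered 11 (r = 0.77). Srxn1 and Gclm deviated the other way. Srxn1 had r = -0.83 with Mt1 and -0.84 with Mt2, -0.92 and -0.93 in the TRIM21 line and -0.69 and -0.70 in the parental line. Gclm had r = -0.76 with Mt1 and -0.81 with Mt2, -0.88 and -0.92 in the TRIM21 line and -0.37 and -0.41 in the parental line. Values for 1 line are of log2 CPM itself, and all others of deviations. Those of the TRIM21 line include the TRIM21 PBS sample numbered 11. Without it the r of deviations with Mt1 was -0.77 for Srxn1 and -0.65 for Gclm. These correlations describe the samples, which share libraries, depth and any handling within a run, and they carry no test.

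Nqo1 and Txnrd1 formed the other close pair, at r = 0.87 (rho 0.85), and r = 0.78 without the TRIM21 PBS sample numbered 11. Gclc with Txnrd1 was at 0.74, and at 0.60 without that sample, and Nqo1 with Gclm was at 0.76, and at 0.55 without it. Gclc and Gclm, the 2 subunits of one enzyme, had r = 0.63 (rho 0.43), and 0.43 without the sample. Within the lines these relations were closer in the TRIM21 line than in the parental line, a difference that was not tested. Gclc with Txnrd1 was at 0.90 and 0.22, Nqo1 with Gclc at 0.74 and -0.14, Gclc with Gclm at 0.71 and 0.48, and Nqo1 with Gclm at 0.83 and 0.40, in that order. Nqo1 with Txnrd1 was at 0.94 and 0.73. The values of the TRIM21 line include the TRIM21 PBS sample numbered 11, the highest of all 18 for Nqo1, Txnrd1, Gclc and Gclm. Values of that line without it were not computed, so the closer relations there may rest on this sample. Slc7a11 was near 0 with the metallothioneins (-0.11 and -0.13). Its r with Nqo1 was 0.49 over 18 samples, and 0.84 without TRIM21 PBS 11. Of the 36 pairs of genes, 11 had r of at least 0.5 and 11 had r of -0.5 or below. Without the TRIM21 PBS sample numbered 11 these counts were 10 and 6. The 6 were Hmox1 with Gclm and Srxn1, and Mt1 and Mt2 each with Gclm and Srxn1. The same shares over pairs of all tested genes were not computed. The counts therefore do not show that these genes move together or apart more than other genes do. Deviations sum to 0 within each group, so fewer than 18 of them are free to vary.

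**Figure D4:**
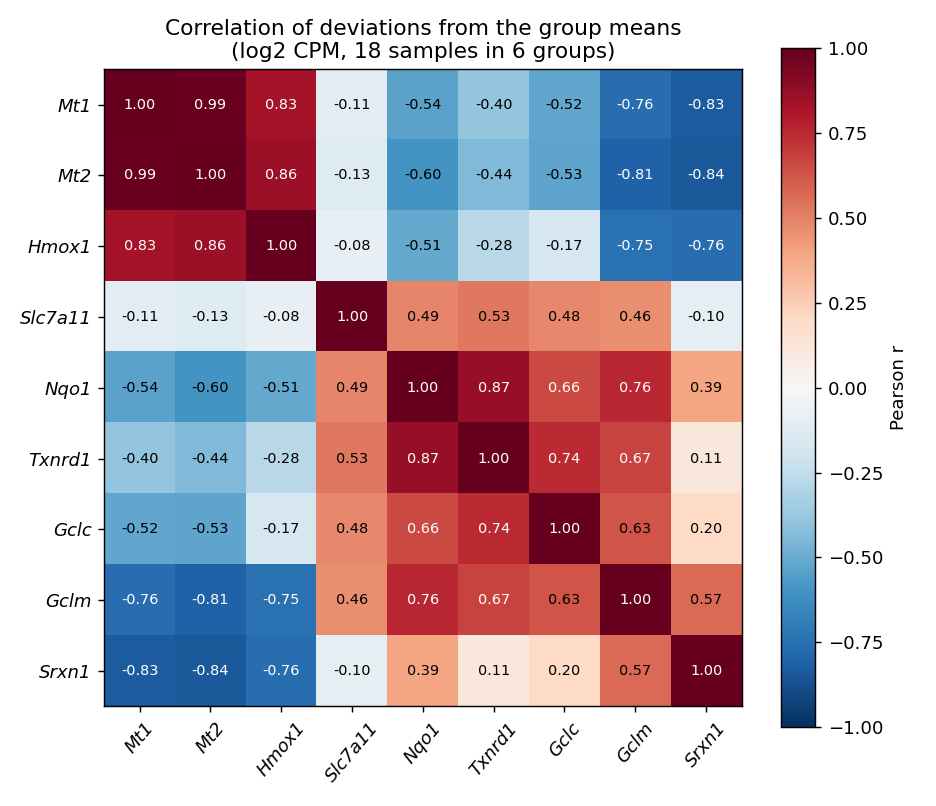
Each cell is the Pearson r of 2 genes' deviations from their group means in log2 CPM over 18 samples, with red above 0 and blue below 0. Mt1, Mt2 and Hmox1 form a red block (0.83 to 0.99) that is blue against Gclm and Srxn1 (-0.75 to -0.84), and Nqo1, Txnrd1, Gclc and Gclm form the other red block (0.63 to 0.87).

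By the same measure, the 2 tested genes most like each of the 9 were named. For Mt1 and Mt2 these were each other and Trappc6a (r = 0.98 with each). For Hmox1 they were BC005764 (0.94) and Ptges (0.92), and for Srxn1 Akirin2 (0.94) and March5 (0.93). For Nqo1 they were Cirh1a (0.96) and Odc1 (0.94), and for Txnrd1 Atic (0.96) and Mars2 (0.96). For Gclc they were Hsp90aa1 (0.91) and Noc3l (0.88), and for Gclm Utp6 (0.94) and Zfp706 (0.93). For Slc7a11 they were Gpt2 (0.95) and Iars (0.95). All are over the 18 samples and were picked as the highest among 12140 genes, so their size carries no test.

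Slc7a11 followed the number in the sample titles. The 6 samples numbered 14 were at 8.58, 9.97 and 6.46 CPM in the TRIM21 line and 9.34, 8.88 and 8.72 in the parental line (PBS, BSA, IgG). The 6 samples numbered 10 were at 18.2, 21.04 and 18.5 CPM in the TRIM21 line and 11.04, 10.7 and 15.2 in the parental line, and the 6 numbered 11 lay between 12.8 and 16.1 CPM. Every sample numbered 14 was below every sample with another number. How many of all tested genes separate by number in this way was not computed. A test of the number, chosen after seeing the data, gave Slc7a11 a log2 difference of -0.84 for 14 against 10 and -0.076 for 11 against 10 (edgeR adjusted p = 0.00286). It was the one gene of the 9 called, against 11.2% of all tested genes, so 1 call among 9 genes is near the share over all genes. Within number 10 the lines did not overlap for Slc7a11 (nor for 20.5% of all tested genes), with a mean log2 difference of 0.66, against 0.11 within number 11 and -0.13 within number 14.

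Nqo1 missed the threshold in that test (edgeR adjusted p = 0.0580), with -0.30 for 14 against 10 and 0.28 for 11 against 10. Without the TRIM21 PBS sample numbered 11 it passed (edgeR adjusted p = 0.00977). Mt1 and Mt2 gave -0.50 and -0.50 for 11 against 10 (edgeR adjusted p = 0.218 and 0.206). What the numbers stand for is not given in the sources used here.

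**Figure D5:**
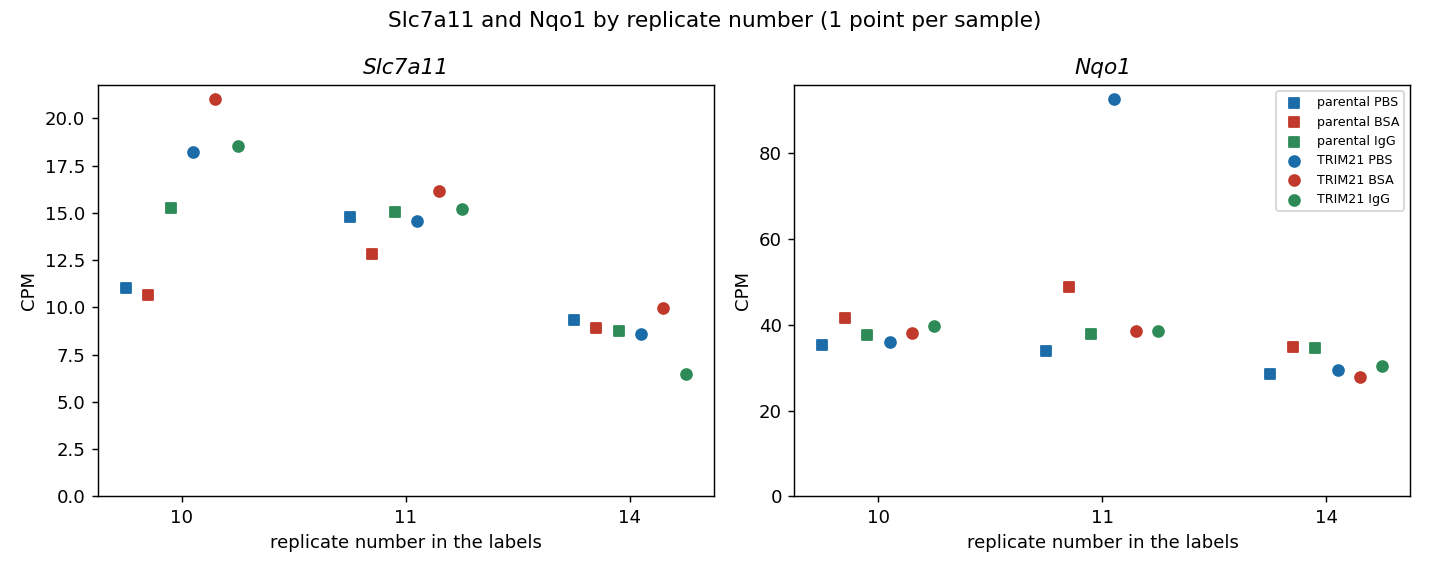
Slc7a11 (left) and Nqo1 (right) are plotted in CPM against the number in the sample titles, with 1 point per sample, colours for treatments and shapes for lines. The 6 Slc7a11 points numbered 14 (6.46 to 9.97 CPM) lie below the 12 others (10.7 to 21.04 CPM), a separation whose share over all genes was not computed. In the right panel 1 Nqo1 point, TRIM21 PBS 11, lies far above the rest.

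The rest of the pathway was read from lists set out for these genes. The 10 NRF2 regulators, with Nfe2l2 (-0.016), Keap1 (-0.0068), the adaptor Cul3 (0.034) and the repressor Bach1 (-0.021), gave 0 calls between the lines by edgeR, and 0 at an unadjusted p under 0.05, with a median log2 difference of -0.0064 against 0.014 over all genes. Sqstm1, the autophagy receptor that binds KEAP1, had the smallest edgeR adjusted p of the list (0.255, log2 -0.15).

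Of 31 tested genes of glutathione and thioredoxin metabolism, 1 rose and 5 fell in the TRIM21 line by edgeR, against 1.39% and 4.79% of all genes. Leaving out each sample in turn, 2 to 7 fell, with 2 without the TRIM21 IgG sample numbered 10 and 3 without the parental IgG sample numbered 11. Gstm2 and Gstm1, glutathione transferases, were at 25.9 ± 1.34 and 102.5 ± 7.13 CPM in the TRIM21 line, against 37.9 ± 3.11 and 142.6 ± 16.3 CPM in the parental line (SD, n = 9), log2 differences of -0.55 and -0.48 (edgeR adjusted p = 6.49e-06 and 0.000175), and both were lower in 9 of 9 pairs. Members of this family are alike in sequence, so their counts depend on how shared reads were handled. Gpx7 (-0.37), an endoplasmic reticulum peroxidase, and Prdx4 (-0.26), a peroxiredoxin of the same compartment, also fell, with Gstt1 (-1.06) at under 1 CPM (edgeR adjusted p = 0.0241, 0.0245 and 0.0378). The gene that rose was Abcc4, an efflux transporter, at 0.54 (edgeR adjusted p = 0.00382, 9 of 9 pairs). The list's median was -0.024.

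Of 22 other NRF2 targets 1 rose and 3 fell, beside the same shares of all genes (1.39% and 4.79%). There were 2 calls in all without any 1 of TRIM21 PBS 10, TRIM21 BSA 14, TRIM21 IgG 10, parental BSA 14 and parental IgG 11. Idh1, cytosolic isocitrate dehydrogenase, fell by 0.59 on the log2 scale, Aox1, aldehyde oxidase, by 0.52 and Cat, catalase, by 0.20, while Sod3, extracellular superoxide dismutase, rose by 0.35 (edgeR adjusted p between 0.00142 and 0.0384). The Sod3 call was lost without any 1 of TRIM21 PBS 10, TRIM21 BSA 11, TRIM21 BSA 14, TRIM21 IgG 10 and TRIM21 IgG 11. Likewise it was lost without any 1 of parental PBS 14, parental BSA 14, parental IgG 10 and parental IgG 11. Of 25 tested genes of metal response and transport, 1 rose, the zinc importer Slc39a6 (0.24, edgeR adjusted p = 0.0248), and 1 fell, the copper transporter Slc31a2 (-0.30, edgeR adjusted p = 0.0290), a share near the 6.18% of all genes. Leaving out each sample in turn gave 0 to 3 calls in this list, with 0 without TRIM21 BSA 10, TRIM21 IgG 10, parental BSA 14 or parental IgG 14, and 1 without TRIM21 BSA 11, TRIM21 IgG 11, TRIM21 IgG 14, parental PBS 11, parental PBS 14, parental BSA 10 or parental IgG 11. The medians of these lists were -0.0025 and 0.0058. Mt3 and Mt4, the other metallothioneins, had too few reads to test. Between treatments, and in the tests of a line difference in treatment effects, edgeR called 0 genes of any of the 4 lists.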

How the data were processed

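The authors deposited unnormalized read counts for each gene symbol, with 1 table for each sample. The submitters' processing notes name bcl2fastq 2.19.1.403, FastQC 0.11.5, STAR 2.5.1b, HTSeq 0.6.0, DESeq2 1.6.3 and the build mm10, without their settings. Reads the authors counted outside genes (13.2% to 18.9%) were left out of library sizes.

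Genes were filtered with filterByExpr (minimum count 10, minimum total 15) and scaled by TMM. All 18 samples entered 1 edgeR 4.0.16 quasi-likelihood fit (R 4.3.3) with a term for each group, with Benjamini-Hochberg adjustment over 12140 genes and a threshold of 0.05. SEs come from the F statistic. Log2 CPM used a prior count of 2. Alternatives used limma 3.58.1, DESeq2 1.42.0, other filters and scalings, a replicate block, a GC-content offset and leaving out each sample. The GC-content offset, and the counts over gene pairs, pathway lists and unadjusted p-values with samples left out, were chosen after seeing the data. The procedure was tested on simulated counts. Same-group samples differed by 10.6 to 82.0 times counting noise (chi-square per degree of freedom), so none was a copy.

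The 9 genes and the pathway lists were chosen with earlier results of these data known. Named genes are the 9, Trim21, list genes with an adjusted p under 0.05 in the averaged line difference (at most 6 a list), and the 2 genes most correlated with each of the 9. Markers of fibroblasts, blood, epithelial, endothelial and muscle cells were read as summed CPM, with endothelial markers at most 2.60 CPM and muscle markers at most 0.357 CPM. Whether the numbers 10, 11 and 14 pair samples was checked by correlating deviations from group means. They did, with every same-number correlation over 0.1, for the lines after BSA (0.289 to 0.445) and for IgG against BSA in the parental line (0.232 to 0.397), a pairing that comes from these data and not from the labels. Gene positions are from GENCODE M21 (GRCm38).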

Additional observations from a re-analysis of the deposited data

Results flagged for a closer look

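In the 9 samples of the TRIM21 line, the PBS sample numbered 11 lay far from the others for 2 of the 9 genes. Nqo1 was at 92.7 CPM there, the next highest sample was at 39.8 CPM and the lowest at 27.8 CPM, so the gap took 0.816 of the whole range, above Dixon's 95% critical value for 9 samples. Txnrd1 was at 343.9 CPM, with the next at 249.1 and the lowest at 196.4 CPM, a gap of 0.642 of the range. The check covered 18 groups (9 genes in 2 lines), and chance flags about 1 in 20 such groups.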

How the results depend on the processing

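Gclc kept its direction and its call in the averaged line difference under 8 alternatives (log2 0.29 to 0.30, adjusted p 0.000666 to 0.00951) and without each of the 18 samples (0.25 to 0.33, adjusted p 0.00157 to 0.0237). The number of the 9 genes called was 1 to 2 when samples were left out and 2 with the GC-content offset and replicate block together (Gclc and Gclm). After PBS it was 0 to 3 when samples were left out, with 3 (Nqo1, Gclc and Gclm) without the TRIM21 PBS sample numbered 14, and 2 (Gclc and Gclm) with the offset and block. Shares of all genes called after PBS under these settings are not given here, so these counts only describe the 9 genes. In the other 11 comparisons of line and treatment it was 0 under every alternative run. For the test of the number it was 2 with no filter, 2 with the GC-content offset (Nqo1 and Slc7a11 in both) and 1 to 4 when samples were left out, with 4 (also Mt1 and Mt2) without the parental PBS sample numbered 11. Of all genes, that test called 7.66% with no filter and 22.2% with the offset. With samples left out it called 4.31% to 16.7%, the highest share being without the parental PBS sample numbered 11. Small differences that did not pass changed sign: without the TRIM21 PBS sample numbered 11, Nqo1 was at -0.10 and Txnrd1 at -0.025. Mt1 was at -0.13 and Mt2 at -0.092 without the TRIM21 PBS sample numbered 14, and Mt1 at -0.0050 without TRIM21 IgG 10, -0.012 without parental PBS 14, -0.0061 without parental BSA 11 and -0.028 without parental IgG 11. Over all samples left out in turn, the highest values were 0.23 for Nqo1, 0.11 for Txnrd1, 0.17 for Mt1 and 0.21 for Mt2. The cause of these shifts was not tested.

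With the replicate block Gclc was at 0.29 (adjusted p 0.00441), and the block changed no call among the 9 genes, while the genes called in all went from 750 to 1462 for the averaged line difference (1159 with the GC-content offset, 2363 with both, 1268 without the TRIM21 PBS sample numbered 14). Outside the 2 comparisons where the numbers pair the samples, not every same-number correlation was over 0.1. Over all groups 32 of 45 were (mean 0.218, lowest -0.323). Among samples of other groups, 16 of 18 samples correlated best with one of their own number. Slc7a11, at 144 to 530 counts, had the fewest reads of the 9 genes.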
